A study of Homo sapiens with 12 samples.

Results

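SKBG-1(R) and SKBG-1(S) are the stereoisomers of 1 small molecule, SKBG-1, and the lists of RNA sites that the protein NONO contacted were compared between cells given one and cells given the other. Members were all peaks of the SKBG-1(R) lists (replicates 1 and 2) and of the SKBG-1(S) lists (replicates 1 and 2), 22004 of the 26351 peaks of the series. Each peak carries the authors' gene and region class, numbers are given per 10000 peaks of the list, and lists of the same replicate number were compared with each other. The cells were 22Rv1, an established human prostate cancer cell line. They received 20 µM SKBG-1(R) or 20 µM SKBG-1(S) for 4 h, in 0.04% DMSO, the solvent, which the control group received alone. Dose, time and solvent were thus the same for both compounds, and 1 pair of compounds was compared. The labels name no genetic change of NONO in these samples. Each group had 2 replicates, each an immunoprecipitation and an input library, and each immunoprecipitation gave 1 peak list. Whether the replicates came from separate cultures is not in the labels, so a p-value here measures the spread between these samples alone, which may be technical.

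NONO is a nuclear RNA-binding protein that works in pairs with its relatives SFPQ and PSPC1, in transcription, in splicing and in the nuclear bodies called paraspeckles, which form on the long noncoding RNA NEAT1. It contacts RNA that is still being made, so introns hold many of its sites. The title of the study places SKBG-1 among molecules that target NONO to change the transcripts of cancer genes. A stereoisomer has the same atoms and bonds in another arrangement in space, so the second compound serves as a chemical control for the first. In eCLIP, UV light joins proteins to the RNA they touch, the protein is immunoprecipitated, and a peak is a stretch where its RNA fragments exceed those of the input library. A peak needs both a transcript and NONO on it, so fewer peaks, less of a transcript and fewer cells that make it cannot be told apart in these bulk samples. The weakest deposited peaks stood 8.0-fold over input, and the lowest −log10 p was 3.00. A gene without a peak is therefore not shown to be free of NONO.

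A few stretches show the kinds of site at issue. Peaks of the lists were joined into regions where they overlapped by at least 1 nt on the same strand. The sequences below are from regions that lie wholly in an exon of a noncoding or intron-retaining transcript of GENCODE 29. Regions of a UTR class, regions on 1 chromosome and the widest regions were left out of the search. By these choices 13 regions qualified, of the 528 found in both lists of a compound and neither of the other, or in all 4. They are written 5′ to 3′ on the transcript strand (GRCh38), and capitals mark the bases that a peak covered in every list named. The first 3 had a peak in both SKBG-1(R) lists and in neither SKBG-1(S) list. They lie in a distal intron of ATXN2, which encodes the RNA-binding protein ataxin 2 (chr12:111598101-111598195, minus strand), in an exon of MIRLET7BHG, from which let-7 microRNAs are cut (chr22:46112177-46112243, plus strand), and in AC020916.1, the noncoding host transcript of the miR-23a, miR-27a and miR-24-2 hairpins (chr19:13837041-13837250, minus strand).
ATXN2, SKBG-1(R) lists: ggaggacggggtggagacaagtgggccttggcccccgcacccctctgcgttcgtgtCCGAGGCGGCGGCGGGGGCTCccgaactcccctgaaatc
MIRLET7BHG, SKBG-1(R) lists: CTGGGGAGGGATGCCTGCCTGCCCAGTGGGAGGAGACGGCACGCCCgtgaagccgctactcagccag
AC020916.1, SKBG-1(R) lists: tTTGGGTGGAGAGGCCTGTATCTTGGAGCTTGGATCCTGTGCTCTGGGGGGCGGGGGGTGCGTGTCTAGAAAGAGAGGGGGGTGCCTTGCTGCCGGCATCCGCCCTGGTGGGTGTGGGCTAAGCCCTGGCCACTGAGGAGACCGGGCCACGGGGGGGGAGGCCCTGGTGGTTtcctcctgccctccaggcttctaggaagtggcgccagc
The next 3 had a peak in both SKBG-1(S) lists and in neither SKBG-1(R) list. They lie in a proximal intron of PHF21B (chr22:45008167-45008268, minus strand), in a distal intron of SDF4, which encodes a calcium-binding protein of the Golgi (chr1:1219627-1219718, minus strand), and again in AC020916.1 (chr19:13842709-13842828, minus strand).
PHF21B, SKBG-1(S) lists: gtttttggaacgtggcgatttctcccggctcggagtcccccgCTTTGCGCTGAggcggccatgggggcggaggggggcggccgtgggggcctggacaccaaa
SDF4, SKBG-1(S) lists: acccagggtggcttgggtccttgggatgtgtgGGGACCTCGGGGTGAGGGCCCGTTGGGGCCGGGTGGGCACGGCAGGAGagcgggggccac
AC020916.1, SKBG-1(S) lists: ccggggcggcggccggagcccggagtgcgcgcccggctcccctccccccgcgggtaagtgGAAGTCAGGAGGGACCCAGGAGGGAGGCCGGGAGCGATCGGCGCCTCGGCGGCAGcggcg
The last had peaks in all 4 lists and lies in AC020916.1 too (chr19:13842473-13842701, minus strand).
AC020916.1, all 4 lists: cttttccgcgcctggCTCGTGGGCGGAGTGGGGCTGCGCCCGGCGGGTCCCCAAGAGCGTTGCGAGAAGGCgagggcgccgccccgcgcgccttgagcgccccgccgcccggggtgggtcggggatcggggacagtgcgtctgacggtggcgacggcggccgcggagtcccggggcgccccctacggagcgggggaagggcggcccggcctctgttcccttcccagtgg
G and C made up 71.6, 70.1 and 67.1% of the first 3, 69.6, 73.9 and 80.8% of the next 3, and 78.2% of the last. The single transcript AC020916.1, whose peaks the authors' annotation calls intergenic, therefore held a region of each kind within less than 6 kb. The ATXN2 region also had a peak in DMSO replicate 2, the PHF21B region in DMSO replicate 1 and the region of all 4 lists in DMSO replicate 2. The other 4 had none in either DMSO list.

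MicroRNA hairpins were a second kind of site with known letters. On the chromosomes searched, 10 hairpins overlapped a peak of a compound list. The mature sequences below are from RefSeq (GRCh38.p14), with the seed, bases 2 to 8, in capitals. The hairpin of miR-3619, within MIRLET7BHG, had 1 peak in each SKBG-1(R) list and 0 in the SKBG-1(S) and DMSO lists. The hairpin of let-7b, a tumour-suppressive microRNA from the same transcript, overlapped a single peak, of SKBG-1(R) replicate 2.
miR-3619-5p: uCAGCAGGcaggcuggugcagc
let-7b-5p: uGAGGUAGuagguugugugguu
miR-3176: aCUGGCCUgggacuaccgg
The hairpin of miR-3176 went the other way in pair 1. It had 0 and 2 peaks in the SKBG-1(R) lists, 1 and 2 in the SKBG-1(S) lists and 0 and 2 in the DMSO lists. The 3 seeds differ. With 0 to 2 peaks each, these counts are too small to compare the compounds, and no test was run on them.

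The list of SKBG-1(R) replicate 2 stood apart before any gene was considered. The SKBG-1(R) lists held 1953 and 14847 peaks, the SKBG-1(S) lists 1237 and 3967, and the DMSO lists 669 and 3678. SKBG-1(R) replicate 2 alone held 67.5% of the peaks of the 4 compound lists and was 7.60 times as long as SKBG-1(R) replicate 1, where the ratio for SKBG-1(S) was 3.21. Within pairs the SKBG-1(R) list was 1.58 times as long in replicate 1 and 3.74 times in replicate 2, a geometric mean of 2.43. The means were 8400 ± 9117 (SD, n = 2) and 2602 ± 1930 (SD, n = 2), and an exact two-sided permutation test on the log2 numbers gave p = 0.667, the smallest p possible for 2 against 2 being 0.333. The log2 difference of 1.28 became −0.18 without SKBG-1(R) replicate 2, when SKBG-1(R) replicate 1 was set against both SKBG-1(S) lists, but was 0.66 within pair 1. In each group replicate 2 gave the longer list. The lists give no read totals, and the depth of each library is unknown.

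**Figure D1:**
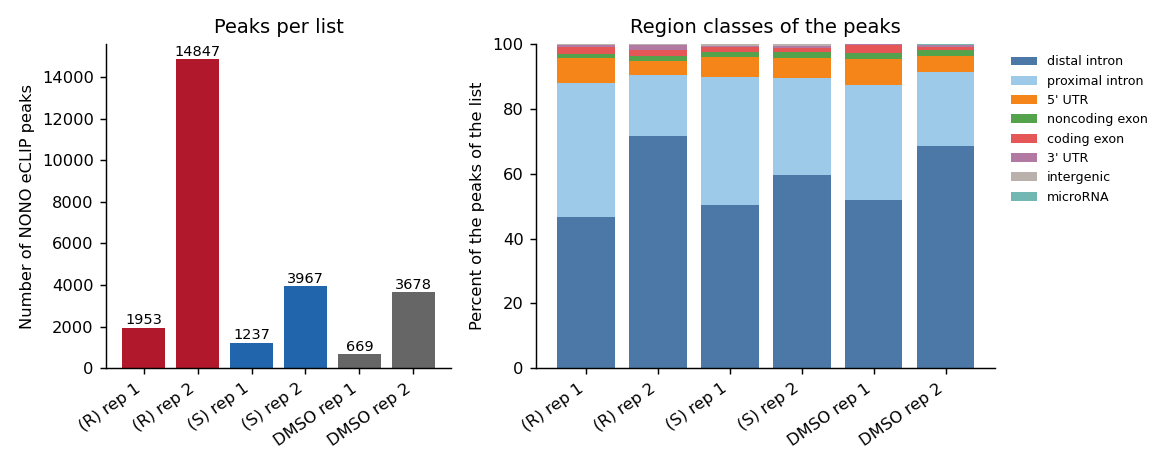
Left, the number of peaks in each list (bars, 1 list each). Right, the percent of a list's peaks in each region class of the authors' annotation. SKBG-1(R) replicate 2, with 14847 peaks, is the longest list and has the largest distal intron share, 71.8%.

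Within transcripts, the proximal and distal intron shares differed more between the replicates of each compound than between the compounds. The intronic share was 87.8 and 90.4% for SKBG-1(R) and 89.9 and 89.6% for SKBG-1(S). Proximal introns, within 500 nt of an exon, held 41.1 and 18.6% under SKBG-1(R) and 39.5 and 30.05% under SKBG-1(S). The difference was 1.67 percentage points in pair 1 and −11.4 in pair 2, so its direction turned between the pairs. Distal introns, the rest of the intron, held 46.7 and 71.8% against 50.4 and 59.5%. 5′ UTRs held 7.83 and 4.30% against 5.98 and 6.02%, and noncoding exons 1.38 and 1.70% against 1.54 and 1.87%. Coding exons held 1.95 and 1.78% of the SKBG-1(R) peaks against 1.62 and 1.36%, and 3′ UTRs 0.67 and 1.58% against 0.32 and 0.66%. For those 2 classes the groups did not overlap, and both reached the smallest exact permutation p, 0.333 two-sided, which became 1 by Benjamini-Hochberg over the 6 classes. Their 95% Wilson intervals, which cover counting error only, overlapped within pairs for coding exons (1.42 to 2.66 against 1.05 to 2.48% in pair 1, 1.58 to 2.00 against 1.04 to 1.77% in pair 2). For 3′ UTRs they overlapped in pair 1 (0.39 to 1.14 against 0.13 to 0.83%) and not in pair 2 (1.39 to 1.79 against 0.45 to 0.96%).

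Intronic peaks lay towards the 5′ end of genes with both compounds. Where 0 is the start of the gene and 1 its end, the median peak lay at 0.042 and 0.289 under SKBG-1(R) and 0.086 and 0.153 under SKBG-1(S) (exact two-sided permutation p = 1). SKBG-1(R) thus held both the lowest and the highest median. A 5′ splice site of GENCODE 29 lay within 100 nt of 15.1 and 6.10% of the peaks under SKBG-1(R) and 13.4 and 9.05% of those under SKBG-1(S) (exact permutation p = 1). The 10 genes with most peaks took 20.1 and 17.7% of the SKBG-1(R) lists and 23.8 and 13.6% of the SKBG-1(S) lists (exact permutation p = 1). A gene with any peak held 3.87 and 11.4 peaks on average under SKBG-1(R) and 3.37 and 4.28 under SKBG-1(S), where the exact permutation p was 0.667. In each of these 4 measures the 2 SKBG-1(R) lists differed by more than the means of the compounds.

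Same-numbered lists of the 2 stereoisomers shared many sites. In replicate 1, 39.5% of the SKBG-1(R) peaks overlapped a SKBG-1(S) peak and 58.1% of the SKBG-1(S) peaks a SKBG-1(R) peak. In replicate 2 the shares were 20.3 and 61.9%, with the shorter list again the better covered. Lists of the same compound were not always the closer ones. SKBG-1(S) replicate 1 overlapped SKBG-1(R) replicate 2 at 66.9% of its peaks and SKBG-1(S) replicate 2, a shorter list, at 54.3%. SKBG-1(R) replicate 1 overlapped SKBG-1(R) replicate 2 at 54.4% and SKBG-1(S) replicate 2 at 45.0%. With each SKBG-1(R) list cut to the length of the same-numbered SKBG-1(S) list, by the authors' −log10 p, the same-numbered shares were 50.4 and 47.7% in replicate 1 and 41.9 and 35.9% in replicate 2. The overlap is a description, with no test.

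Gene by gene, AFF3 held peaks under SKBG-1(S) and almost none under SKBG-1(R), and CCND1 and PMEPA1 held a larger share of the SKBG-1(R) lists in both pairs, yet no gene passed the test. The log2 of peaks per 10000 was compared by limma, with all 6 lists in 1 fit, for the 479 genes whose peaks over all lists numbered 10 or more. At a Benjamini-Hochberg adjusted p of 0.05, 0 genes (0.0%) were called, and the smallest adjusted p was 0.995. By an unadjusted p under 0.05 the test picked 0 genes higher with SKBG-1(R) (0.0%) and 5 lower (1.04%), with AFF3, PPP3CA, PTP4A1 and LZTS2 among them. Per 10000 peaks, 52 genes (10.9%) were higher with SKBG-1(R) in both same-numbered pairs and 129 (26.9%) lower. Of the 479, 139 lacked a peak in both lists of a pair and could fall in neither group. All 52 and 129 were thus among the other 340. Both SKBG-1(R) values stood above both SKBG-1(S) values for 30 genes (6.26%) and below for 78 (16.3%). These directions depend on the scaling. By the number of peaks as deposited, in lists of unlike length, 153 genes were higher and 20 lower in both pairs, and at equal length 36 and 104. The higher share of these genes was 28.7% per 10000 peaks, 88.4% by number and 25.7% at equal length. The median tested gene stood at −0.08 on the log2 scale, while TMM scaling put it at 0.16 and no scaling at 0.75.

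The 2 pairs gave little of the same order of genes. Across the 479 tested genes the log2 differences of pair 1 and pair 2 had a Pearson correlation of 0.078 and a Spearman correlation of 0.104. Of the 340 genes with a peak in both pairs, 53.2% differed in the same direction. Of the 157 genes with at least 5 peaks in each pair, 54.8% did, with correlations of 0.161 and 0.141. Genes are not independent replicates, and the points of a pair share their libraries and list lengths. The median 95% interval of a gene reached 2.23 to either side on the log2 scale. That width is for a single gene before adjustment and is no limit of detection, since AFF3, at −3.33, also missed the adjusted threshold. With 2 lists a group, a missed threshold does not show that the stereoisomers act alike.

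**Figure D2:**
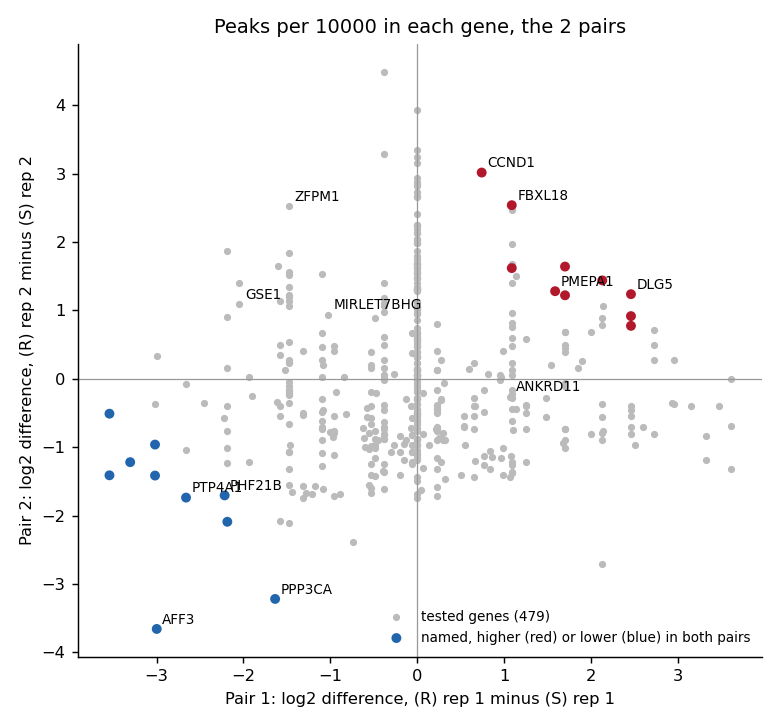
Each point is 1 of the 479 tested genes, with the log2 difference in peaks per 10000 (prior count 2) of pair 1 on the x axis and of pair 2 on the y axis. The cloud shows no common slope (Pearson correlation 0.078). AFF3 and PPP3CA lie at the lower left, CCND1 and FBXL18 at the upper right, and ZFPM1, GSE1 and MIRLET7BHG are lower in pair 1 and higher in pair 2.

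AFF3 (ENSG00000144218, chromosome 2 from 99545419 to 100142739) encodes an AF4-family nuclear protein of transcription elongation. It held 1 and 0 peaks under SKBG-1(R), 9 and 21 under SKBG-1(S) and 17 and 31 with DMSO. The groups of the 2 compounds did not overlap, and the SKBG-1(S) values stood nearer to DMSO. Per 10000 peaks these were 5.12 and 0, 72.8 and 52.9, and 254 and 84.3. The 30 SKBG-1(S) peaks were intronic and ran from 38.6 to 245 kb from the 5′ end of a gene of 597 kb, and the SKBG-1(R) peak lay at 38.6 kb. The log2 difference was −3.33 ± 0.98 (SE, 95% interval −5.37 to −1.29), the smallest unadjusted limma p (0.00264), with an adjusted p of 0.995. Over the 19 alternatives it went from −4.57 to −1.58, with adjusted p from 0.121 to 1.

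**Figure D3:**
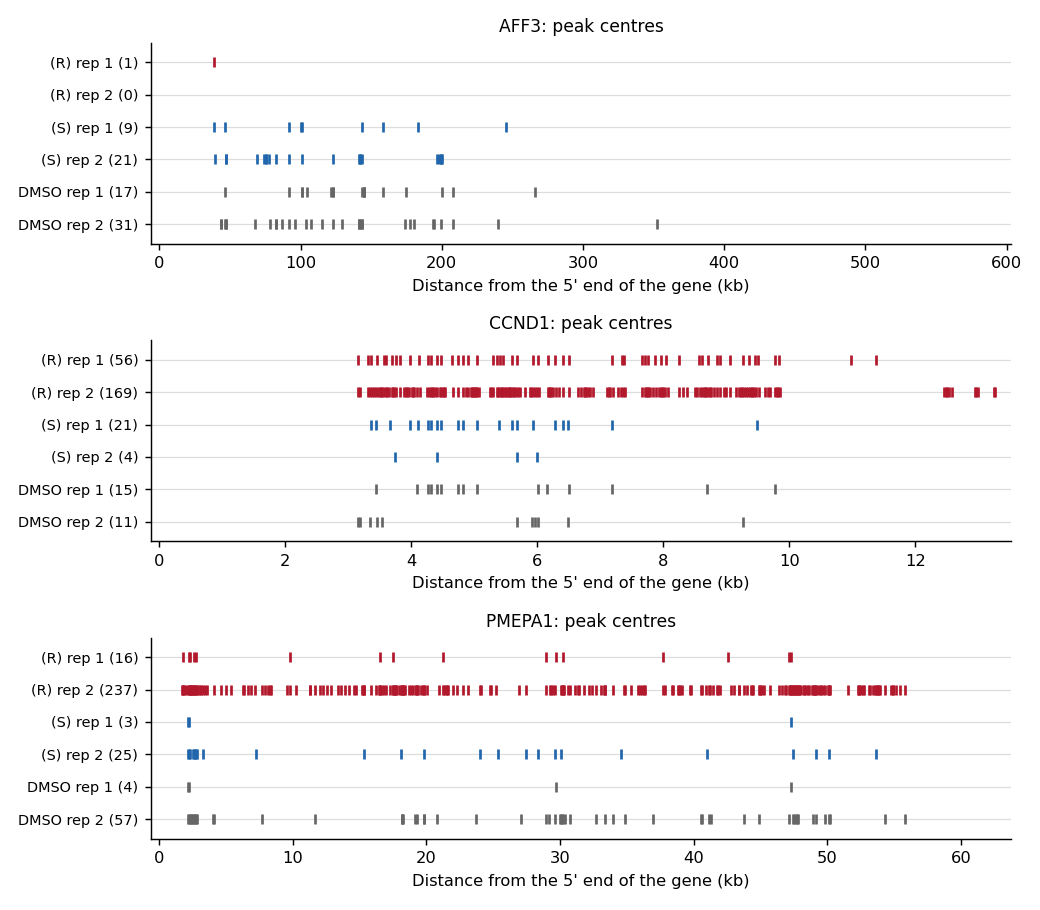
Centres of the peaks (ticks) along AFF3, CCND1 and PMEPA1 in the 6 lists, by distance from the 5′ end of the gene in kb, with the number of peaks in parentheses. The SKBG-1(R) rows of AFF3 hold 1 and 0 peaks, while CCND1 holds 56 and 169 under SKBG-1(R) and 21 and 4 under SKBG-1(S), and PMEPA1 16 and 237 against 3 and 25.

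The next genes lower with SKBG-1(R) encode enzymes and regulators. PPP3CA, the catalytic subunit of the phosphatase calcineurin, held 6 and 2 peaks under SKBG-1(R), 13 and 20 under SKBG-1(S) and 6 and 25 with DMSO. Its log2 difference was −2.43 ± 1.02 (SE), and the groups did not overlap. Its size rests on which SKBG-1(R) list is kept: leaving out replicate 2 gave −1.06 and leaving out replicate 1 gave −3.82. PTP4A1, a prenylated tyrosine phosphatase, held 0 and 2, 3 and 6, and 0 and 0 peaks. Here DMSO was as empty as SKBG-1(R), unlike AFF3, and the log2 difference between the compounds was −2.20 ± 0.997 (SE). PTP4A1 reached the 10 peaks needed for the test only through the SKBG-1(S) lists. LZTS2, a negative regulator of beta-catenin signalling, held 0 and 9 peaks against 5 and 8 (1 and 14 in DMSO), so its difference in pair 2 exists only per 10000 peaks. PHF21B, a histone-binding PHD finger protein, held 1 and 24 against 5 and 25, and 4 and 29 in DMSO. Further genes of this direction were the joint entry AC007240.1,AC104794.5, GNPTG, which encodes a subunit of the enzyme that tags lysosomal proteins, the pseudogene PKD1P6, whose peaks may be shared with near-identical copies of PKD1, and the kinase gene TNK2. Their log2 differences were −2.14, −2.22, −2.03 and −1.99, in this order, with limma adjusted p of 0.995 for each. PKD1P6 (0 and 19 against 6 and 8) and TNK2 (0 and 14 against 4 and 9) had more peaks under SKBG-1(R) in pair 2, and fewer per 10000, and with a list left out they ran from −2.59 to −1.08 and from −2.22 to −1.21. Over the other alternatives they ran from −3.03 to −0.46 and from −3.03 to −0.36.

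Genes higher with SKBG-1(R) were led by DLG5, a scaffold protein of cell junctions. It held 4 and 18 peaks under SKBG-1(R), 0 and 1 under SKBG-1(S) and 0 and 0 with DMSO. Both SKBG-1(R) values stood above both SKBG-1(S) values, and the log2 difference was 1.85 ± 0.99 (SE, 95% interval −0.20 to 3.90, unadjusted limma p 0.075). CCND1 (ENSG00000110092, chromosome 11 from 69641087 to 69654474) encodes cyclin D1, which drives cells out of G1. It held 56 and 169 peaks under SKBG-1(R), 21 and 4 under SKBG-1(S) and 15 and 11 with DMSO. Per 10000 peaks these were 287 and 114, 170 and 10.1, and 224 and 29.9. The SKBG-1(R) value was 1.69 times that of SKBG-1(S) in pair 1 and 11.3 times in pair 2, but the groups overlapped, since SKBG-1(S) replicate 1 exceeded SKBG-1(R) replicate 2. The log2 difference was 1.88 ± 1.10 (SE, 95% interval −0.41 to 4.17, unadjusted limma p 0.103), and 0.09 without SKBG-1(S) replicate 2 and 3.72 without SKBG-1(S) replicate 1, so its size rests on which of these lists is kept. The CCND1 peaks lay between 3.15 and 13.3 kb from the 5′ end under SKBG-1(R) and between 3.35 and 9.48 kb under SKBG-1(S). In the 3′ UTR they numbered 2 and 13 under SKBG-1(R) and 0 in both SKBG-1(S) lists.

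PMEPA1, a feedback inhibitor of TGF-beta signalling, held 16 and 237 peaks under SKBG-1(R), 3 and 25 under SKBG-1(S) and 4 and 57 with DMSO. Per 10000 these were 81.9 and 160, 24.3 and 63.0, and 59.8 and 155. The groups of the compounds did not overlap, and SKBG-1(S) was the lowest group, below DMSO in both pairs. Its log2 difference was 1.43 ± 0.92 (SE), and 0.82 to 2.05 with a list left out. FBXL18, a substrate adaptor of ubiquitin ligases, held 1 and 76 peaks against 0 and 2, nearly all in SKBG-1(R) replicate 2. PHF2, a histone demethylase, held 3 and 42 against 0 and 3, DUSP8, a MAP kinase phosphatase, 2 and 26 against 0 and 1, and PLEKHA6 4 and 24 against 0 and 3. DGCR2 (4 and 6), KIAA1671 (2 and 9) and FAM102A (1 and 14) had 0 peaks in both SKBG-1(S) lists and 1 in DMSO replicate 2. A fitted value set against 0 peaks depends on the prior count and gives no bound. The log2 differences of these 7 genes were 1.35 to 1.81, and limma's adjusted p was 0.995 for each. With a list left out they stayed above 0, with FBXL18 at both ends of the range, 0.34 to 3.18. This is no support, since the genes were chosen as higher in both pairs. Those with 0 peaks in both SKBG-1(S) lists could not fall below 0. All 7, and DLG5, reached the 10 peaks needed for the test only through the SKBG-1(R) lists, so the filter itself favoured this direction.

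**Figure D4:**
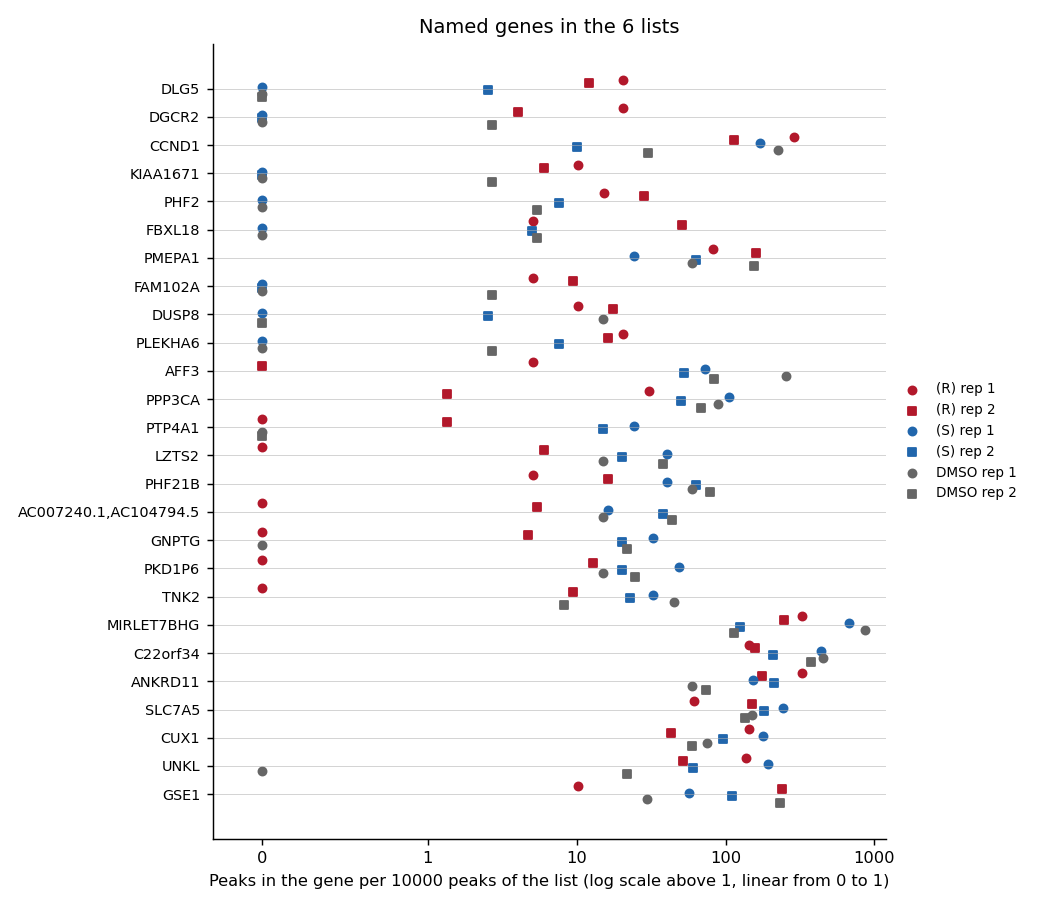
Peaks per 10000 peaks of the list in each of the 6 lists (points), for the named genes higher, then lower, under SKBG-1(R), then those with the highest level in the compound lists. In AFF3 and PPP3CA the red points of SKBG-1(R) lie left of the blue points of SKBG-1(S), while in MIRLET7BHG and GSE1 the 2 colours interleave.

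Of the 8 transcripts with the highest level in the compound lists, C22orf34 and SLC7A5 were lower under SKBG-1(R) with groups that did not overlap, and limma called neither. Among all 479 tested genes 78 (16.3%) did the same, so this is not particular to the 8. MIRLET7BHG held 64 and 365 peaks under SKBG-1(R) and 83 and 50 under SKBG-1(S). Per 10000 peaks these were 328 and 246 against 671 and 126, with the SKBG-1(S) values on both sides of the SKBG-1(R) values. The log2 difference was −0.04 with a 95% interval of −1.98 to 1.89. C22orf34, a noncoding transcript, stood at 143 and 158 per 10000 under SKBG-1(R) and 437 and 209 under SKBG-1(S), a log2 difference of −0.98 ± 0.77 (SE) that was −0.46 without SKBG-1(S) replicate 1, −1.51 without SKBG-1(S) replicate 2 and 0.29 with no scaling. SLC7A5, the large neutral amino acid transporter, stood at 61.4 and 152 against 243 and 182, a log2 difference of −1.08 that ran from −1.64 to −0.46 with a list left out and was 0.21 with no scaling. ANKRD11, a chromatin regulator, stood at 328 and 176 against 154 and 212 per 10000, and GSE1, a subunit of a histone demethylase complex, at 10.2 and 241 against 56.6 and 111. Both turned direction between the pairs. CUX1, a homeobox transcription factor, stood at 143 and 43.1 against 178 and 95.8, and UNKL, a zinc finger protein, at 138 and 51.9 against 194 and 60.5. Per 10000 both were lower in both pairs, with groups that overlapped. By number of peaks both were higher in both pairs. CUX1 held 28 and 64 against 22 and 38, and UNKL 27 and 77 against 24 and 24.

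Genes with peaks under 1 stereoisomer alone were counted next. Of the genes with a peak in both SKBG-1(R) lists (416) and of those with a peak in both SKBG-1(S) lists (316), 238 were shared. In 47 genes both SKBG-1(R) lists and neither SKBG-1(S) list held a peak, and in 15 the reverse. At equal length, where the cut took the weakest peaks from the SKBG-1(R) lists alone, they were 4 and 47. The order of the counts thus turned with the cut, which is no result about the compounds. Without SKBG-1(R) replicate 2 they were 93 and 65, with a gene then needing a peak in SKBG-1(R) replicate 1 only. Both DMSO lists held a peak in 7 of the 15 genes (46.7%), in 0 of the 47, and in 134 of the 238 (56.3%). Over all 1689 gene names of the lists, 188 had a peak in both DMSO lists. These counts were not tested. At equal length this was 19 of 47, 0 of 4 and 102 of 166. Among the 15 were PDE4D, a cyclic AMP phosphodiesterase (1 and 6 peaks under SKBG-1(S)), NMNAT2, which makes NAD in axons (3 and 3), LMO7 (2 and 2), TRA2A, a splicing regulator (3 and 1), SGCZ and SRRM4 (1 and 2 each), PLEKHA1 (1 and 2) and, with 1 peak in each list and named after their values were seen, ANKRD28, NFIB, PRKAA1, RP11-681B3.4, SMAD9 and TICAM2. PDE4D and TRA2A had peaks in both DMSO lists (2 and 1 in each). The 47 were led by FAM102A, NDUFA10, a subunit of mitochondrial complex I (1 and 11 peaks), KIAA1671, DGCR2 and NDST1, an enzyme of heparan sulfate synthesis (2 and 7), and had a median of 3 peaks.

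Regions were counted in the same way. Of the 15372 regions with a peak in a compound list, 286 had one in all 4, 201 in both SKBG-1(R) lists alone and 41 in both SKBG-1(S) lists alone. At equal length the counts were 210, 74 and 85, so that the SKBG-1(S) regions became the more numerous. This cut took peaks from the SKBG-1(R) lists alone. At a −log10 p of at least 5 in every list the counts were 157, 96 and 15. A peak in a DMSO list overlapped 82.9, 30.3 and 56.1% of the regions, and 83.8, 31.1 and 54.1% at equal length. CCND1 alone held 23 of the 201 SKBG-1(R) regions, MIRLET7BHG 14, PMEPA1 9, ANKRD11 6 and LARP1, a regulator of translation, 5. The strongest by the weaker list was in a distal intron of CCND1 (chr11:69650096-69650196), with the authors' log2 enrichments of 4.53 and 4.997, followed by a second in the same intron class of CCND1 (4.52 and 5.14) and one in ATXN2 (chr12:111581279-111581357, 4.48 and 5.22). The next were in the 5′ UTRs of MBD3, a subunit of the NuRD complex (4.48 and 4.38), and of ZFHX3, a tumour suppressor in prostate cancer (4.36 and 4.98). The first CCND1 region had no peak in a DMSO list. The second CCND1 region and those of ATXN2 and ZFHX3 had one in DMSO replicate 2, and that of MBD3 in DMSO replicate 1. The SKBG-1(S) regions were led by a distal intron of PTPRN2, a phosphatase-like protein of secretory granules (chr7:158147516-158147633, 4.20 and 4.57), which also had peaks in both DMSO lists. After it came the noncoding RP5-1103G7.4 (4.14 and 5.23), NMNAT2 (3.93 and 4.09), AC007240.1,AC104794.5 (3.91 and 4.51) and PTPRN2 again (3.89 and 4.27). Of these, the RP5-1103G7.4 region had no peak in a DMSO list, and the others had one in DMSO replicate 2. PTPRN2 held 3 of the 41 regions, the most of any gene.

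**Figure D5:**
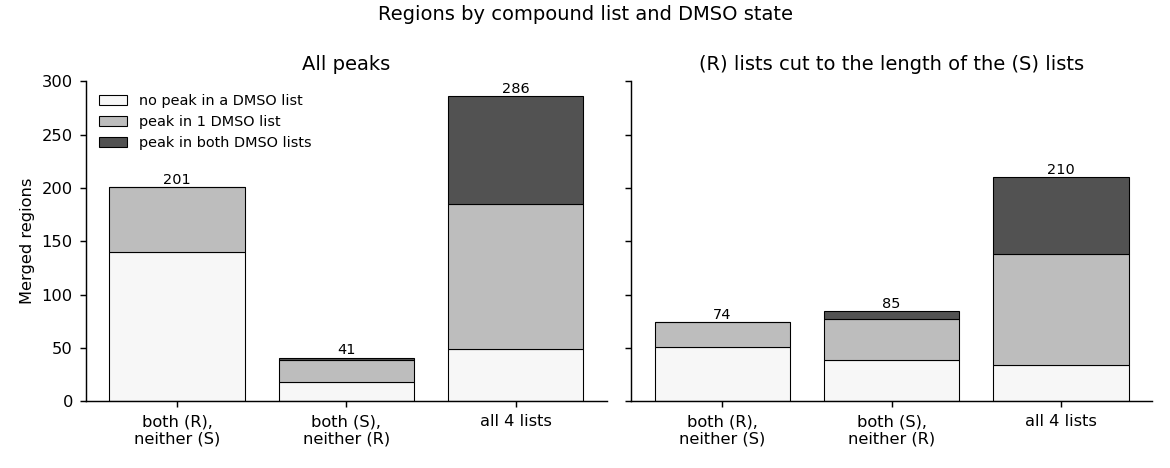
Number of merged regions with a peak in both SKBG-1(R) lists and neither SKBG-1(S) list, the reverse, or all 4, shaded by how many DMSO lists held a peak there. With all peaks the counts are 201, 41 and 286, and with the SKBG-1(R) lists cut to equal length 74, 85 and 210.

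Gene lists were read against the share of all tested genes higher (10.9%) or lower (26.9%) in both pairs, and limma called 0 members of each. These shares are of all 479 tested genes, with the 139 that could fall in neither group, so they are low for genes with a peak in both pairs. Long genes of neuronal type, a list chosen with earlier results of these data in view and so no independent evidence, had 5 tested members of 20 listed, and all 5 were lower in both pairs. Their median log2 difference was −1.37, against −0.08 for all tested genes. Beside AFF3 and PDE4D (−1.79) they were SGCZ, a sarcoglycan, SRRM4, a neural splicing factor (0 and 0 peaks against 1 and 2, −1.27), and PTPRN2 (1 and 67 against 7 and 19, −1.37). By number of peaks PTPRN2 was higher in pair 2, and its log2 difference was 0.07 with no scaling, −0.19 without SKBG-1(R) replicate 1 and −2.14 without SKBG-1(R) replicate 2. By number of peaks 4 of the 5 were lower in both pairs and 0 higher, and with no scaling the median was −0.79. PDE4D, SGCZ and SRRM4 held 0 peaks in both SKBG-1(R) lists and could not be higher. The counts and medians of this list were thus partly fixed in advance. SGCZ and SRRM4 reached the 10 peaks needed for the test only through the DMSO lists. Medians by gene length neither rose nor fell steadily, and an effect of length was not tested. The 59 tested genes of 200 kb and over had the lowest median log2 difference, −0.38, with 18 lower (30.5%) and 4 higher (6.78%) in both pairs. Genes of 100 to 200 kb had a median of 0.06, those of 50 to 100 kb 0.03, those of 20 to 50 kb −0.13 and those under 20 kb −0.16. In the same order, 19.0, 21.4, 34.4 and 27.2% of these were lower in both pairs, and 16.2, 14.3, 6.56 and 11.1% higher.

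Of the markers of the prostate luminal cell, SPDEF and GRHL2 were among the tested genes and stood lower with SKBG-1(R) in both pairs per 10000 peaks. GRHL2 held 3 and 12 peaks against 2 and 8, so by number it was higher in both pairs. SPDEF, a prostate transcription factor, held 2 and 29 peaks against 4 and 12 (−0.92, from −1.08 to −0.58 with a list left out, and 0.28 with no scaling), so by number it was higher in pair 2. KLK3 and KLK2, the defining kallikreins of the luminal cell, had no peak in the 4 lists. As eCLIP reads NONO contacts, this is no measure of their expression. Of 10 markers of other cell types 0 had a peak in any list.

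G1/S regulators had 3 tested members of 17, with CCND1 higher in both pairs and CDKN2A and E2F3 turning between pairs, and a median of −0.09. TGF-beta feedback regulators had 3 of 14 tested. PMEPA1 and SKI (1 and 214 peaks against 0 and 17) were higher in both pairs and SMAD7 lower, and their median was 1.37. The log2 difference of SKI, a repressor of SMAD proteins, was 1.37 ± 1.45 (SE), and it was −0.62 without SKBG-1(R) replicate 2. Of the NuRD complex and its recruiters 4 of 17 were tested, with 1 higher (GATAD2A, 9 and 46 peaks against 1 and 7, 1.34) and 1 lower in both pairs, and a median of 0.36. Histone methylation and corepressor genes had 12 of 30 tested, 2 higher and 4 lower, median −0.37. EHMT1, a histone H3 lysine methyltransferase, was among the lower ones (7 and 22 peaks against 11 and 23, −1.45 ± 0.91 SE, from −2.01 to −0.86 with a list left out). Over the other alternatives EHMT1 went from −1.90 to −0.29. Scaling decides much of this. By number of peaks 3 G1/S regulators, 2 TGF-beta, 2 NuRD and 4 histone methylation genes were higher in both pairs, and 0, 0, 0 and 3 lower. With no scaling the medians were 0.67, 2.05, 1.67 and 0.82, in this order, so those of the G1/S and histone methylation genes changed sign.

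Transcripts of paraspeckle proteins and splicing factors had 9 of 24 tested, 0 higher and 5 lower in both pairs, with a median of −0.57. By number of peaks 2 were higher and 1 lower, and with no scaling the median was 0.60, so the direction of this list turns with the scaling. DAZAP1, an RNA-binding protein, held 7 and 71 peaks against 9 and 22, and RBM14, which paraspeckles need to form, 5 and 13 against 1 and 7. The microRNA host transcripts had 3 of 12 tested. DLEU2, host of miR-15a and miR-16, held 6 and 26 peaks against 10 and 26 and was lower in both pairs (−1.47), and MIR17HG held 2 and 3 against 3 and 2. With a list left out DLEU2 ran from −1.83 to −1.05, and over the other alternatives from −1.77 to −0.29. Of nuclear long noncoding RNAs 2 of 16 were tested, LINC-PINT (12 and 18 against 4 and 12) and MIR17HG. NEAT1 held 1 and 0 peaks under SKBG-1(R) and 1 and 0 under SKBG-1(S). Amino acid transport and ATF4 target genes had 6 of 24 tested, with 2 higher and 3 lower, median −0.34, and cytoskeleton genes 5 of 21, with 0 higher and 3 lower, median −0.60. Both lists turned as well: by number of peaks 4 and 1 genes were higher and 0 lower, and with no scaling the medians were 0.66 and 0.34. Neuroendocrine markers had 1 tested gene, SRRM4. The snoRNA host genes and ribosomal protein genes had no peak in any list. The NONO transcript itself had 0 peaks in all 6 lists, which sets no limit on contacts below the minimum of the lists.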

How the data were processed

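The authors deposited 1 list of eCLIP peaks per immunoprecipitation, each against its own input, per the labels. The tools named in the submitters' processing notes are cutadapt 1.9 and STAR 2.4.0i, and the builds hg19 and hg38. Of 9850 transcripts in the authors' annotation, 9797 (99.5%) had GENCODE 29 coordinates within 1 nt, so the build was taken as GRCh38. Which peak caller was used is not given in the sources used here. Both values per peak deposited by the authors, −log10 p and log2 enrichment over input, describe, rank or filter peaks within a list only. No read counts were used, so depth is unknown and the number of peaks, 669 to 14847, sets the precision.

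Peaks per gene were scaled to 10000 per list, and their log2, after adding a prior count of 2 in proportion to list length, was tested by limma (trended prior variance, all 6 lists, 479 genes with at least 10 peaks, Benjamini-Hochberg threshold 0.05). The fit was run on simulated data as a check of its code, which does not show its power at the spread of these lists. Joint gene names, 1.31% of peaks, were kept. Lists were compared by exact two-sided permutation tests, and shares have 95% Wilson intervals. Named are, among genes with 1 direction in both pairs, the 10 of smallest p each way, the 8 with the highest level in the compound lists, up to 5 bound under 1 compound alone, up to 3 per gene list, NONO and the 5 strongest regions each way, and further tested list members or regions where a count turned on them, chosen after their values were seen. Some genes that these rules pick are not reported here. Members and lists were chosen with earlier results of these data known. GC content over whole lists and GTAAG motifs were not computed, since no genome was used here.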

Additional observations from a re-analysis of the deposited data

How the results depend on the processing

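The count of genes called by limma, 0, was 0 in 18 of 19 alternatives and 24 without SKBG-1(R) replicate 1 (range 0 to 24 with a list left out). Of these 24, 23 had all their peaks, at least 10, in SKBG-1(R) replicate 2, so leaving out the other SKBG-1(R) list fixes the call. With replicate number as a block 0 genes were called, with a smallest adjusted p of 0.121 and 33 unadjusted p under 0.05, against 5. The deviations of same-numbered lists correlated at 0.42 between the compounds and at 0.54 and 0.58 with DMSO, but the labels tie the numbers to no shared batch. Of 537 alternative values of named genes 523 kept their direction and 0 passed the test. Many of these genes were chosen for 1 direction in both pairs of the same lists, so the kept directions are no independent support. MIRLET7BHG turned to 0.34 with TMM scaling, 1.23 with no scaling, 0.068 by merged regions, 0.15 by summed width, 0.72 at a log2 enrichment of at least 4, 0.84 at equal length, and 0.15 and 1.15 (range −1.23 to 1.15 with a list left out) without SKBG-1(R) replicate 2 or SKBG-1(S) replicate 1, where SKI turned to −0.62 and −0.35 (range −0.62 to 3.42). With no scaling C22orf34 turned to 0.29, SLC7A5 to 0.21, PTPRN2 to 0.066 and SPDEF to 0.28. The cause of these turns was not tested.

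With a list left out, the log2 difference in the number of peaks went from −0.18 to 2.74. Differences in percentage points went from −1.92 to 0.66 (introns), −16.1 to 6.37 (proximal introns), −8.28 to 16.8 (distal introns), −1.71 to 1.83 (5′ UTRs), −0.33 to 0.0039 (noncoding exons), −4.83 to 5.35 (10 leading genes) and −5.13 to 3.82 (5′ splice sites), and median position from −0.078 to 0.170. At a log2 enrichment of at least 4, introns turned to 0.28, 5′ UTRs to −0.26, coding exons to −0.12, noncoding exons to 0.11 and 5′ splice sites to 0.36. At −log10 p of at least 5, 5′ UTRs turned to −0.075, noncoding exons to 0.031 and 5′ splice sites to 0.84. At equal length distal introns turned to −1.46, noncoding exons to 0.19 and 5′ splice sites to 1.004.

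Overlap of same-numbered lists (SKBG-1(R) in SKBG-1(S), then the reverse) moved in replicate 1 to 22.7 and 37.2% at a log2 enrichment of at least 4, 50.4 and 47.7% at equal length, and 37.2 and 54.6% where at least 50% of a peak had to overlap. In replicate 2 these were 7.73 and 37.8%, 41.9 and 35.9%, and 17.7 and 55.5%, and at −log10 p of at least 5 the second was 69.2%. Regions under SKBG-1(R) alone and SKBG-1(S) alone numbered 85 and 14 at a log2 enrichment of at least 4, 96 and 15 at −log10 p of at least 5, and 74 and 85 at equal length. Genes under 1 compound alone numbered 4 and 47 at equal length and 93 and 65 without SKBG-1(R) replicate 2, alternatives chosen after seeing the data, as were the directions by number of peaks and at equal length in the report. Of the other values 81 kept their direction, or their size within 1.5 times or their interval. Depth is unknown and limits all of these.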
